A study of Mus musculus with 2 samples.

Results

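The 10 smooth muscle contractile genes described here are Acta2, Tagln, Actg2, Des, Myl9, Cnn1, Tpm1, Tpm2, Mylk and Actc1. They were chosen by gene symbol, and all 10 were found among the 33456 genes measured in both libraries. The material was mouse yolk sac of the B6 strain, with 1 library of Baf155 CKO yolk sacs (CKO) and 1 library of wild-type yolk sacs (WT). Each library mixed E9.5 and E10.5 embryos in equal numbers, so no cell can be assigned a stage. Digestion used collagenase (0.25%, 30 min, 37 °C), and the frozen cells were later sorted to remove dead cells and Ter119-positive red blood cells. Transcript 5′ ends were counted on the 10x Genomics platform with unique molecular identifiers (UMIs). A label speaks of nuclei although the protocol handles live cells. How many embryos were pooled, what drives the deletion and which exon it removes were not stated in the labels. BAF155, encoded by Smarcc1, is a core subunit of the BAF chromatin remodelling complex.

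Smooth muscle cells contract when calcium and calmodulin activate myosin light chain kinase, which phosphorylates the regulatory myosin light chain so that myosin can pull on actin filaments. Tropomyosin, calponin and transgelin lie along those filaments, and desmin filaments link the contractile units to each other. Serum response factor, with its partner myocardin or a related coactivator, binds the CArG box, a short DNA element near the start of many of these genes. The wall of the yolk sac has a layer of extraembryonic mesoderm covered by mesothelium, and both mesothelial and mesenchymal cells can make smooth muscle actin.

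Each genotype has a single library, so the 2 genotypes are compared without a test. Levels are UMIs summed over cells and scaled to a common total as CPM. The 95% intervals are exact Poisson intervals for levels and exact binomial intervals for shares and ratios. They cover counting error only, and UMIs of 1 cell are not independent. Each UMI stands for 1 captured transcript end, so levels were not divided by gene length.

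The CKO library held 865 barcodes with 27314411 UMIs and the WT library 815 barcodes with 24538853 UMIs. After filters 842 CKO and 785 WT cells were kept, and 1 barcode occurred in both libraries. Cells were classed by how many markers of a class they showed, without using the members. A stromal cell had UMIs of at least 9 of 20 mesenchymal and mesodermal markers, and 277 CKO and 247 WT cells passed, with a median depth of 21934 UMIs in CKO and 22599 UMIs in WT. The summed level of those 20 markers was 12478 CPM in CKO stromal cells and 10573 CPM in WT stromal cells, and none of them was at 0. Smarcc1 was at 32.1 CPM in CKO stromal cells and 96.8 CPM in WT stromal cells, a CKO over WT ratio of 0.331, and 37.2% of CKO stromal cells still had a Smarcc1 UMI, against 81.4% of WT stromal cells. Clustering of all cells, made without the members, placed many cells of the same class by library. One mostly stromal cluster held 118 CKO and 0 WT cells and another 1 CKO and 83 WT cells, so genotype and any other difference between the libraries cannot be told apart. Cells from several embryos of a library are not labelled by embryo.

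The members lie on 7 chromosomes of GRCm38 (GENCODE release M21). Acta2, which encodes the smooth muscle α-actin, is on chr19:34241090-34255590 (minus strand), and Actg2, the enteric smooth muscle γ-actin, on chr6:83512905-83536265 (minus strand). Actc1, the cardiac α-actin that early smooth muscle also uses, is on chr2:114047282-114053548 (minus strand). Myl9, the regulatory myosin light chain of smooth muscle, is on chr2:156775420-156781658 (plus strand), and Mylk, the kinase that phosphorylates it, on chr16:34745210-35002420 (plus strand). Tpm1 on chr9:67022590-67049406 (minus strand) and Tpm2 on chr4:43514711-43523765 (minus strand) encode tropomyosins. Tagln (transgelin, also SM22α) on chr9:45929619-45936058 (minus strand) and Cnn1 (calponin) on chr9:22099216-22109630 (plus strand) encode actin-binding proteins. Des (desmin), an intermediate filament protein, is on chr1:75360329-75368579 (plus strand).

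RefSeq promoter windows on GRCm38.p6, from 250 bases before the start to 50 after it, were at hand for 8 of the 10 members. An exact CArG box was found in 2 of the 8 windows, those of Actc1 and Myl9, and in 1.63% of all 32817 windows. With up to 1 mismatch a match was found in 4 of the 8, those of Acta2, Actc1, Myl9 and Tpm1, and in 21.1% of all windows. The search covered both strands. The stretches that hold the matches in Actc1, Myl9 and Acta2 are shown because Actc1 and Myl9 hold the exact matches and Acta2 is the most abundant member. Capitals mark exact or 1-mismatch matches, each stretch runs 5′ to 3′ on the gene's strand, and a match is a description of the letters and not a binding site.
Actc1, 190 to 31 bases before the start, chr2:114052906-114053065, minus strand, exact match at 47 bases: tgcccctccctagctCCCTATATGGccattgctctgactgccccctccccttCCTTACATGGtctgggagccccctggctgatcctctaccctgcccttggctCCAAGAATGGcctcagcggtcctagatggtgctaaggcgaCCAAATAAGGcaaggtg
Myl9, 175 to 76 bases before the start, chr2:156775289-156775388, plus strand, exact match at 161 bases: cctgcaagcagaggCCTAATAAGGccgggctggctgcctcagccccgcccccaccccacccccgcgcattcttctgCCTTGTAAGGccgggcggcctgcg
Acta2, 94 to 65 bases before the start, chr19:34255438-34255467, minus strand: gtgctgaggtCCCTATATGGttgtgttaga
Acta2, 44 to 15 bases before the start, chr19:34255388-34255417, minus strand: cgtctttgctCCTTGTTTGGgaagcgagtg
The farther Acta2 match and the farthest Actc1 match have the same 10 letters. The Acta2 stretches overlap an annotated GENCODE exon, and those of Actc1 and Myl9 do not.

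Across named cell classes of at least 20 cells, Acta2, Actg2, Tagln, Des and Cnn1 had their highest levels in stroma in both libraries, while Tpm1, Tpm2 and Mylk were also found at substantial levels elsewhere and Actc1 was highest in CKO megakaryocytes. Acta2 was at 1899 CPM in CKO stromal cells and 2746 CPM in WT stromal cells. In the other named classes of at least 20 cells it was at 6.53 to 132 CPM in CKO and 3.37 to 8.95 CPM in WT. Tagln was at 428 CPM in CKO stroma and 691 CPM in WT stroma, and at no more than 5.14 CPM in CKO and 4.01 CPM in WT in those other classes. Actg2 was at 44.7 CPM in CKO stroma and 268 CPM in WT stroma, and below 1 CPM in every other named class of at least 20 cells. Cells that passed no gate, 39 in CKO and 48 in WT, were at 78.0 CPM in CKO and 11.3 CPM in WT for Acta2 and at 1.04 CPM in CKO and 1.88 CPM in WT for Actg2. Cnn1 had 11 UMIs in CKO stroma and 51 in WT stroma, and outside stroma the other named classes held 2 UMIs in CKO, both in 1 erythroid cell, and 0 in WT. Cells that passed no gate held 3 Cnn1 UMIs in CKO and 1 in WT.

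Of the 10 members, 8 had their highest level in stroma in the CKO library and 9 in the WT library, among named classes of at least 20 cells. The share of all genes highest in stroma was not counted, so these counts are not read as a result about the members. Among the members the exception in both libraries was Mylk. It was at 24.5 CPM in CKO endothelium and 36.9 CPM in WT endothelium, against 1.78 CPM in CKO stroma and 8.55 CPM in WT stroma. Mylk was seen in 46.3% of CKO and 40.0% of WT endothelial cells. Its level in CKO megakaryocytes was 27.1 CPM, and Actc1 was the second exception in CKO because it reached 125 CPM there.

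Tpm1 was seen in every class. In stroma it was at 640 CPM in CKO and 949 CPM in WT, in endothelium at 128 CPM in CKO and 151 CPM in WT, and in erythroid cells at 27.8 CPM in CKO and 32.3 CPM in WT. Tpm2 was abundant in macrophages, at 240 CPM in 11 CKO cells and 155 CPM in 46 WT cells, near its stromal level of 231 CPM in CKO and 225 CPM in WT. Among named classes of at least 20 cells it was lowest in erythroid cells, at 6.74 CPM in CKO and 1.28 CPM in WT.

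Erythroid cells were taken as a type that should lack the smooth muscle genes, to give a background share of cells with a UMI. Their median depth was 35317 UMIs in CKO and 34786 UMIs in WT, above that of stromal cells. Acta2 was seen in 56 of 255 CKO and 19 of 167 WT erythroid cells, with at most 3 UMIs in a cell, against 99.6% of CKO and 98.4% of WT stromal cells. Actg2 was seen in 0.392% of CKO and 0.599% of WT erythroid cells. Des was seen in 7.84% of CKO and 5.99% of WT erythroid cells, against stromal shares of 23.5% in CKO and 38.9% in WT. Tpm1 was seen in 56.5% of CKO and 56.9% of WT erythroid cells. Since Tpm1 was seen in every class, no background share is read for it from these cells. In CKO 1 erythroid cell held 35 Tpm2, 20 Actc1 and 18 Myl9 UMIs. Whether these UMIs are background was not tested. Stromal cells in turn carried erythroid transcripts, with the 12 erythroid markers summing to 2385 CPM in CKO stroma and 338 CPM in WT stroma. Markers of the other classes summed in stroma to 207 CPM in CKO and 180 CPM in WT for endothelium, 24.0 CPM in CKO and 5.58 CPM in WT for megakaryocytes and 14.7 CPM in CKO and 33.2 CPM in WT for cardiomyocytes, with Myh6 and Myh7 at 0. The part of these in the members' levels was not tested. With globin and mitochondrial UMIs taken out of the totals the summed members were at 3697 CPM in CKO and 5600 CPM in WT, against 3616 CPM in CKO and 5490 CPM in WT with them in.

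**Figure D1:**
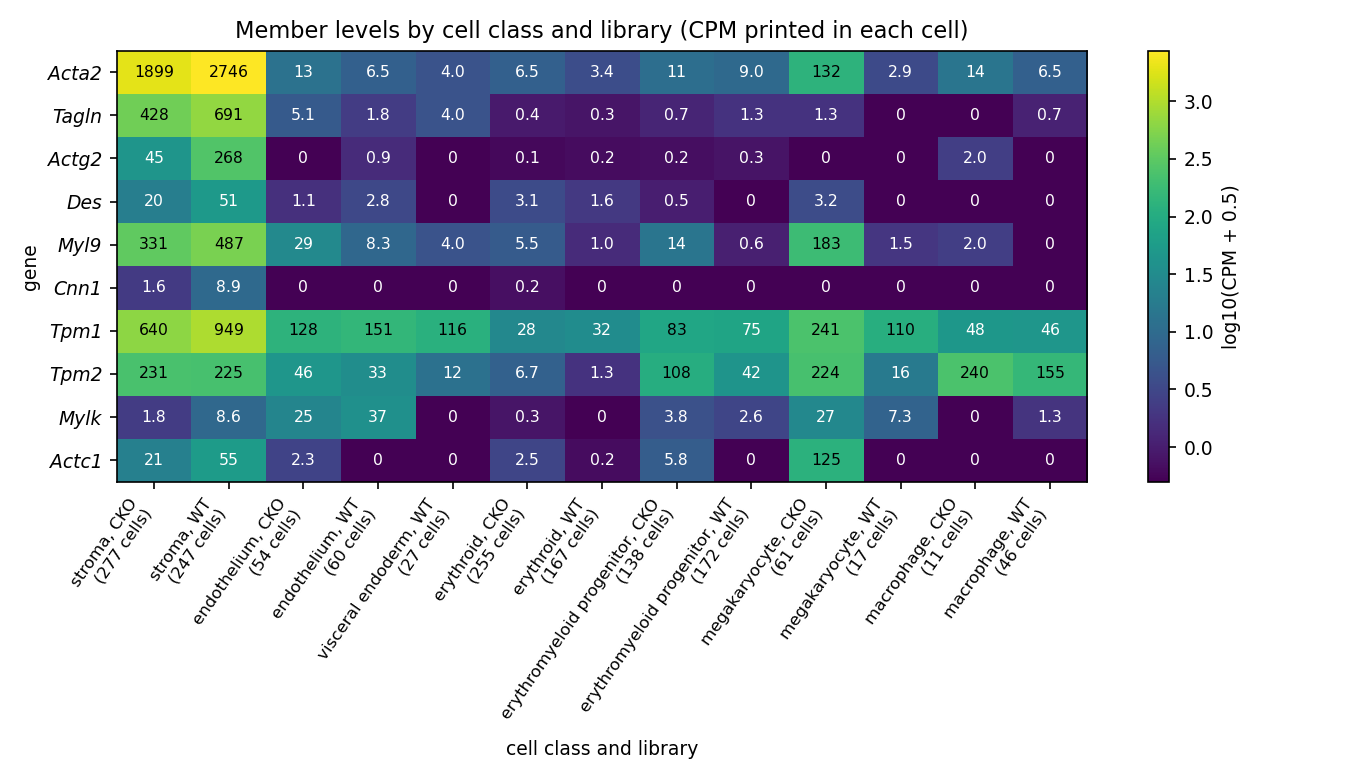
Level of each member in each cell class, with CKO left of WT for each class; colour is log10(CPM + 0.5), the number printed is the CPM, and the number of cells is under each column; the 2 CKO endoderm cells and cells of no gate are not drawn. The 2 stromal columns hold the highest values of Acta2 (1899 CPM in CKO and 2746 CPM in WT), Tagln, Actg2 and Tpm1, while Mylk peaks outside stroma.

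Over all stromal cells the level of each member except Tpm2 was lower in CKO than in WT, and the interval of the Tpm2 ratio included 1. Intervals that exclude 1 were not counted over all genes, so members are not counted by that mark. The ratio was below the 2-fold mark for Actg2, Cnn1, Mylk, Actc1 and Des, so 5 of 10 members were over 2-fold lower and 0 were over 2-fold higher. Over all 11067 genes with at least 20 UMIs in these cells, 3.76% were over 2-fold lower and 6% over 2-fold higher. The median log2 ratio was -1.02 over the members and -0.01 over all those genes.

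Among the actins, Acta2 was at 1899 CPM (1866 to 1932) in CKO and 2746 CPM (2704 to 2789) in WT, a CKO over WT ratio of 0.691 (0.675 to 0.708). Actg2 was at 44.7 CPM (39.8 to 50.03) in CKO and 268 CPM (255 to 282) in WT, a ratio of 0.167 (0.147 to 0.189). It was seen in 30.0% of CKO cells (24.6 to 35.7%) and 54.3% of WT cells (47.8 to 60.6%). After thinning each cell to 10000 UMIs, which left out 19 CKO and 20 WT cells, it was seen in 20.2% of CKO and 40.1% of WT cells. Actc1 was at 20.9 CPM in CKO and 55.1 CPM in WT, a ratio of 0.380 (0.309 to 0.464). Its UMIs came from few cells. They lay in 17 CKO cells, of which 1 held 96 of 141 UMIs, and in 25 WT cells, of which the top cells held 109 and 104 of 316. Without the top cell Actc1 was at 6.73 CPM in CKO and 36.3 CPM in WT.

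Of the motor and its kinase, Myl9 was at 331 CPM in CKO and 487 CPM in WT, a ratio of 0.679 (0.642 to 0.718), and was seen in 89.9% of CKO and 92.7% of WT cells. Mylk had 12 UMIs in CKO stroma and 49 in WT stroma, a ratio of 0.208 (0.101 to 0.398). Mylk was seen in 2.89% of CKO cells (1.25 to 5.61%) and 11.3% of WT cells (7.67 to 16.0%). No CKO cell had more than 3 Mylk UMIs and no WT cell more than 6. After thinning to 10000 UMIs it was seen in 0.775% of CKO and 6.61% of WT cells.

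Of the filament-binding proteins, Tagln was at 428 CPM in CKO and 691 CPM in WT, a ratio of 0.619 (0.590 to 0.649). Tpm1 was at 640 CPM in CKO and 949 CPM in WT, a ratio of 0.675 (0.648 to 0.702), and was seen in 100% of CKO and 99.2% of WT cells. Tpm2 was at 231 CPM (219 to 242) in CKO and 225 CPM (213 to 238) in WT, a ratio of 1.03 (0.952 to 1.10). Over all stromal cells the interval of Tpm2 lies wholly above those of Tpm1, Tagln and Acta2, but its ratio was lower in some stromal groups given below. Cnn1 was at 1.63 CPM in CKO and 8.90 CPM in WT, a ratio of 0.184 (0.0862 to 0.357), and was seen in 6 CKO and 11 WT cells. A pair of WT cells held 20 and 17 of the 51 WT UMIs. Des was at 19.6 CPM in CKO and 50.8 CPM in WT, a ratio of 0.386 (0.312 to 0.476), and was seen in 23.5% of CKO and 38.9% of WT cells.

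**Figure D2:**
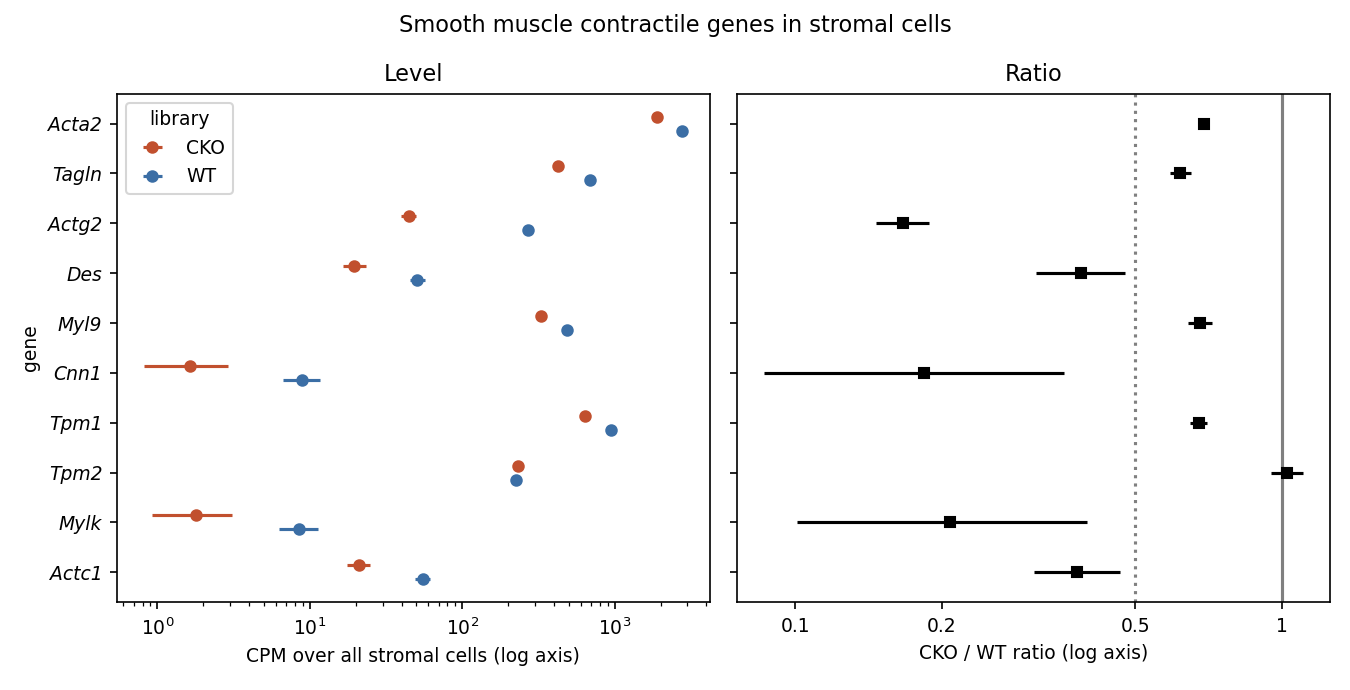
Left, level of each member over all stromal cells of CKO (277 cells) and WT (247 cells) with exact 95% Poisson intervals on a log axis; right, CKO over WT ratio with its 95% interval, with a solid line at 1 and a dotted line at 2-fold lower. Actg2 (0.167), Cnn1 (0.184) and Mylk (0.208) have the lowest ratios, and Tpm2 (1.03) lies on the line at 1.

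Counted within gene families, the smooth muscle actins were a smaller part of all actin in CKO. Acta2 made up 16.3% of the UMIs of the 6 actin genes in CKO stromal cells and 20.3% in WT stromal cells. Actg2 made up 0.384% in CKO (0.342 to 0.429%) and 1.98% in WT (1.89 to 2.08%), and Actc1 0.180% in CKO and 0.408% in WT. The cytoplasmic actin Actg1 made up 46.9% in CKO and 35.2% in WT, while the other cytoplasmic actin, Actb, made up 36.2% in CKO and 42.1% in WT. Acta1, the skeletal muscle actin, had 11 UMIs in CKO and 10 in WT. All 6 actins together were at 11649 CPM in CKO and 13530 CPM in WT. Of the 4 tropomyosins, Tpm1 made up 43.1% in CKO and 51.1% in WT, Tpm2 15.5% in CKO and 12.1% in WT, Tpm3 17.2% in CKO and 14.6% in WT, and Tpm4 24.2% in CKO and 22.2% in WT. In endothelium, by contrast, Acta2 made up 0.126% of CKO actin UMIs and 0.0636% of WT actin UMIs.

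For the summed members, Acta2 and Tagln, the middle of the distribution over stromal cells was similar in both libraries. The summed members had a median of 2883 CPM per cell in CKO and 2867 CPM in WT, and a lower quartile of 1760 CPM in CKO and 1743 CPM in WT. The upper quartile was 4456 CPM in CKO and 6236 CPM in WT, and the highest cell reached 25827 CPM in CKO and 38946 CPM in WT. Acta2 itself had a median of 31 UMIs per cell in both libraries, with an upper quartile of 58 UMIs in CKO and 76.5 in WT. Tagln had a median of 5 UMIs in both. Other members differed in the middle. The median over cells was 543 CPM in CKO and 723 CPM in WT for Tpm1, 205 CPM in CKO and 260 CPM in WT for Myl9, and 161 CPM in CKO and 127 CPM in WT for Tpm2. The median of Actg2 was 0 UMIs in CKO cells and 1 UMI in WT cells.

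Above 10000 CPM, a level set after the values were seen, lay 6 of 277 CKO cells (2.17%, 0.799 to 4.65%) and 32 of 247 WT cells (13.0%, 9.03 to 17.8%). These cells held 11.5% of the member UMIs of CKO stroma and 46.5% of those of WT stroma. They held 33.2% of Actg2 UMIs in CKO and 76.4% in WT, and 75.2% of Actc1 UMIs in CKO and 96.2% in WT. Of the Cnn1 UMIs they held 54.5% in CKO and 98.0% in WT, and of the Tpm1 UMIs 7.002% in CKO and 32.3% in WT. Their median depth was 24480 UMIs in CKO and 26839.5 UMIs in WT, against 21889 UMIs in CKO and 21793 UMIs in WT for the other stromal cells. Over those other cells the summed members were at 3280 CPM in CKO and 3425 CPM in WT, and Acta2 at 1710 CPM in CKO and 1728 CPM in WT. Actg2 was also lower in CKO among the other cells, at 30.6 CPM in CKO and 73.7 CPM in WT. So were Mylk, at 1.67 CPM in CKO and 5.50 CPM in WT, Des, at 19.3 CPM in CKO and 31.4 CPM in WT, and Tpm1, at 610 CPM in CKO and 749 CPM in WT. Tpm2 was higher there, at 218 CPM in CKO and 146 CPM in WT. Cnn1 had 5 UMIs in CKO and 1 in WT among the other cells, and Actc1 was at 5.32 CPM in CKO and 2.44 CPM in WT. Because these groups were cut by the members' own level, their values are a description of where the UMIs lie.

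A further CKO cell with 85788 UMIs had 15 stromal markers and 11 erythroid markers and was set apart with 4 other CKO cells and 1 WT cell that passed a second gate. It held 750 Acta2, 299 Tagln, 38 Actg2, 59 Actc1 and 7 Cnn1 UMIs, and its summed members were at 18616 CPM. With these cells kept as stroma the summed members were at 3731 CPM in CKO and 5456 CPM in WT, and 4 members in place of 5 were over 2-fold lower, since the log2 ratio of Actc1 was then -0.94. The share of all genes past 2-fold was not counted with these cells kept.

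**Figure D3:**
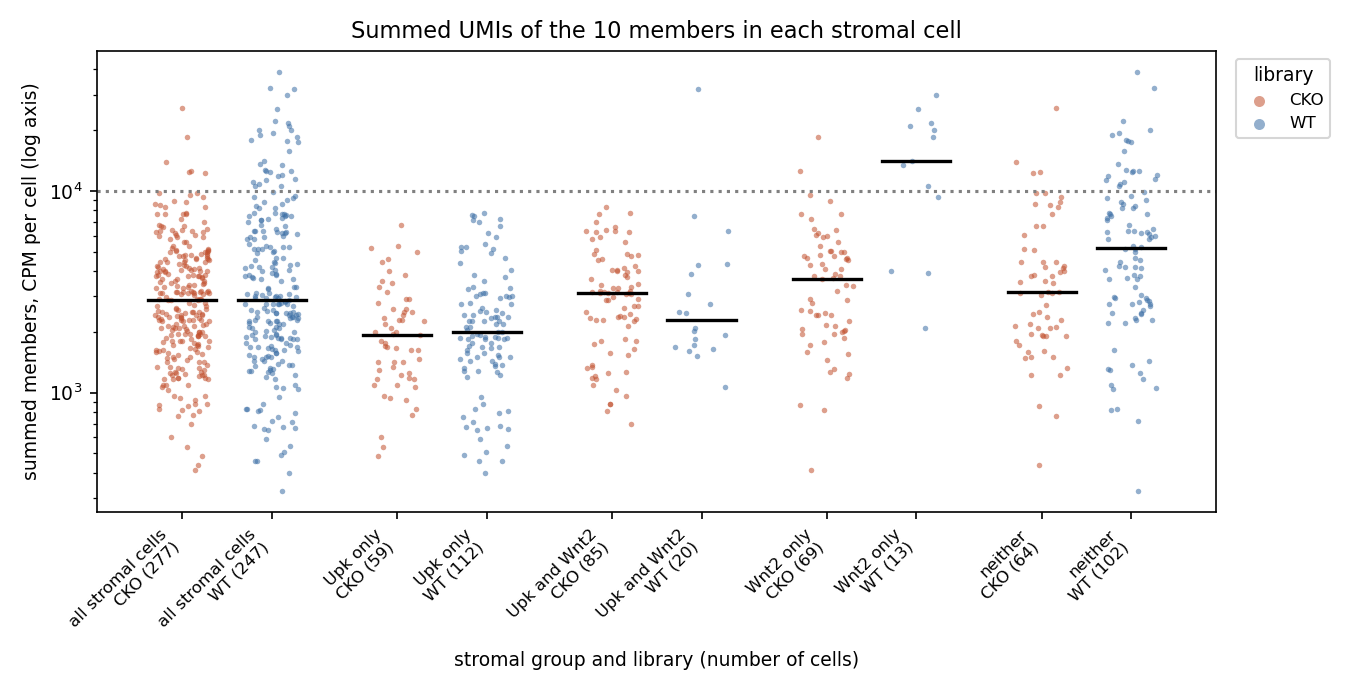
Summed UMIs of the 10 members in each stromal cell in CPM on a log axis, with CKO left of WT, over all stromal cells and by stromal gate; each point is 1 cell, the black bar is the median and the dotted line marks 10000 CPM. The medians over all stromal cells are 2883 CPM in CKO and 2867 CPM in WT, while 6 CKO cells and 32 WT cells lie above the dotted line.

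Stromal cells were then divided by genes that are no members. The Upk gate needed at least 3 UMIs of Upk3b and Upk1b, uroplakins that mark mesothelium, and the Wnt2 gate needed at least 2 of Wnt2, Nkain4 and Prss35. The thresholds were set after seeing the data. The 3 genes of the Wnt2 gate summed to 322 CPM in CKO stroma and 74.2 CPM in WT stroma, so the gates do not hold the same kind of cell in equal measure in both libraries and their sizes are given only as n. The Upk gate alone held 59 CKO and 112 WT cells, both gates 85 CKO and 20 WT cells, the Wnt2 gate alone 69 CKO and 13 WT cells, and neither gate 64 CKO and 102 WT cells.

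Cells with the Upk gate alone had the lowest summed member level of the 4 groups, at 2327 CPM in CKO and 2685 CPM in WT. Single members did not all follow this order. With both gates Des was lower still in CKO, at 6.26 CPM (12 UMIs) against 17.3 CPM (29 UMIs) with the Upk gate alone. In WT Des was at 9.59 CPM with both gates and 13.7 CPM with the Upk gate alone. The former rests on 4 UMIs, all in 1 cell, and the latter on 38, so the WT order is uncertain. In CKO Actg2, at 8.35 CPM, was also lowest with both gates, and Mylk, with 6 UMIs, was highest with the Upk gate alone. Set against cells with neither gate, Acta2 was at 1236 CPM with the Upk gate alone and 2663 CPM with neither in CKO, and at 1346 CPM and 3675 CPM for the same gates in WT. Actg2 was at 19.1 CPM with the Upk gate alone and 89.3 CPM with neither in CKO, and at 32.4 CPM and 372 CPM in WT. Actc1 was at 1.79 CPM with the Upk gate alone and 75.3 CPM with neither in CKO, and at 3.60 CPM and 128 CPM in WT. Of the members with at least 20 UMIs in these cells, 7 of 8 in CKO and 9 of 10 in WT were over 2-fold lower with the Upk gate alone, and Tpm1 was the exception in both. Of all genes with that minimum, 3.52% in CKO and 5.1% in WT were over 2-fold lower and 2.89% in CKO and 2.88% in WT over 2-fold higher. No cell with the Upk gate alone was above 10000 CPM in either library.

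Within the Upk gate alone 0 of the 7 members with at least 20 UMIs were past 2-fold. The CKO over WT ratio there was 0.918 (0.870 to 0.969) for Acta2, 0.757 (0.670 to 0.855) for Tagln, 0.870 (0.764 to 0.989) for Myl9 and 1.03 (0.846 to 1.26) for Tpm2. Actg2 had 32 UMIs in CKO and 90 in WT, a ratio of 0.589 (0.381 to 0.891). In this gate 3.12% of all measured genes were over 2-fold lower in CKO and 3.62% over 2-fold higher.

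With neither gate 4 of 10 members were over 2-fold lower in CKO, namely Actg2, Des, Cnn1 and Mylk. Acta2 was at 2663 CPM in CKO and 3675 CPM in WT, a ratio of 0.725 (0.698 to 0.752). Actg2 was at 89.3 CPM in CKO and 372 CPM in WT, a ratio of 0.240 (0.2003 to 0.2853), and Mylk had 5 UMIs in CKO and 43 in WT, a ratio of 0.146 (0.0452 to 0.368). Tpm2 was at 218 CPM in CKO and 287 CPM in WT here, a ratio of 0.760 (0.667 to 0.866). In this gate 5.12% of all measured genes were over 2-fold lower in CKO and 3.88% over 2-fold higher. Without the cell with the most member UMIs of each library, Tagln (0.451) and Actc1 (0.247) were also over 2-fold lower in this gate, and Des (0.502) was not. The cells left out held 96 of 129 Actc1 UMIs in CKO and 104 of 275 in WT. Another WT cell of this gate, with 109 Actc1 UMIs, stayed in, so that Actc1 ratio rests largely on 1 WT cell. Of the cells with neither gate, 4 of 64 in CKO and 22 of 102 in WT were above 10000 CPM.

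With the Wnt2 gate alone the summed members were at 4115 CPM in 69 CKO cells and 14534 CPM in 13 WT cells, the highest WT level of the 4 groups. Above 10000 CPM lay 2 of the CKO cells in this gate and 9 of those in WT. Acta2 was at 2167 CPM in CKO and 7042 CPM in WT, a ratio of 0.308 (0.292 to 0.324). Actg2 was at 69.8 CPM in CKO and 1586 CPM in WT, a ratio of 0.0440 (0.0353 to 0.0545), and Des at 13.3 CPM in CKO and 170 CPM in WT. Tpm2 was at 374 CPM in CKO and 746 CPM in WT, a ratio of 0.501 (0.433 to 0.580). Of the 8 members with at least 20 UMIs, 7 were over 2-fold lower in CKO and 0 over 2-fold higher, beside 8.65% and 10.3% of all measured genes. With both gates Acta2 was at 1593 CPM in CKO and 3312 CPM in WT, and Actg2 had 16 UMIs in CKO and 36 in WT. There 2 of the 6 members with at least 20 UMIs, Acta2 and Actg2, were over 2-fold lower, beside 4.9% of all measured genes over 2-fold lower and 10.6% over 2-fold higher. The median of the summed members over cells with both gates was 3100 CPM in CKO and 2285 CPM in WT. There 1 of the 20 WT cells reached 32071 CPM and held 861 of the 1382 WT Acta2 UMIs and 31 of the 36 WT Actg2 UMIs. Without the cell with the most member UMIs of each library, Acta2 was at 1530 CPM in CKO and 1399 CPM in WT, a ratio of 1.09 (0.996 to 1.20), and Actg2 at 8.52 CPM in CKO and 13.4 CPM in WT, a ratio of 0.634 (0.222 to 2.21). The direction of Acta2 thus turned, and neither gene was past 2-fold.

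**Figure D4:**
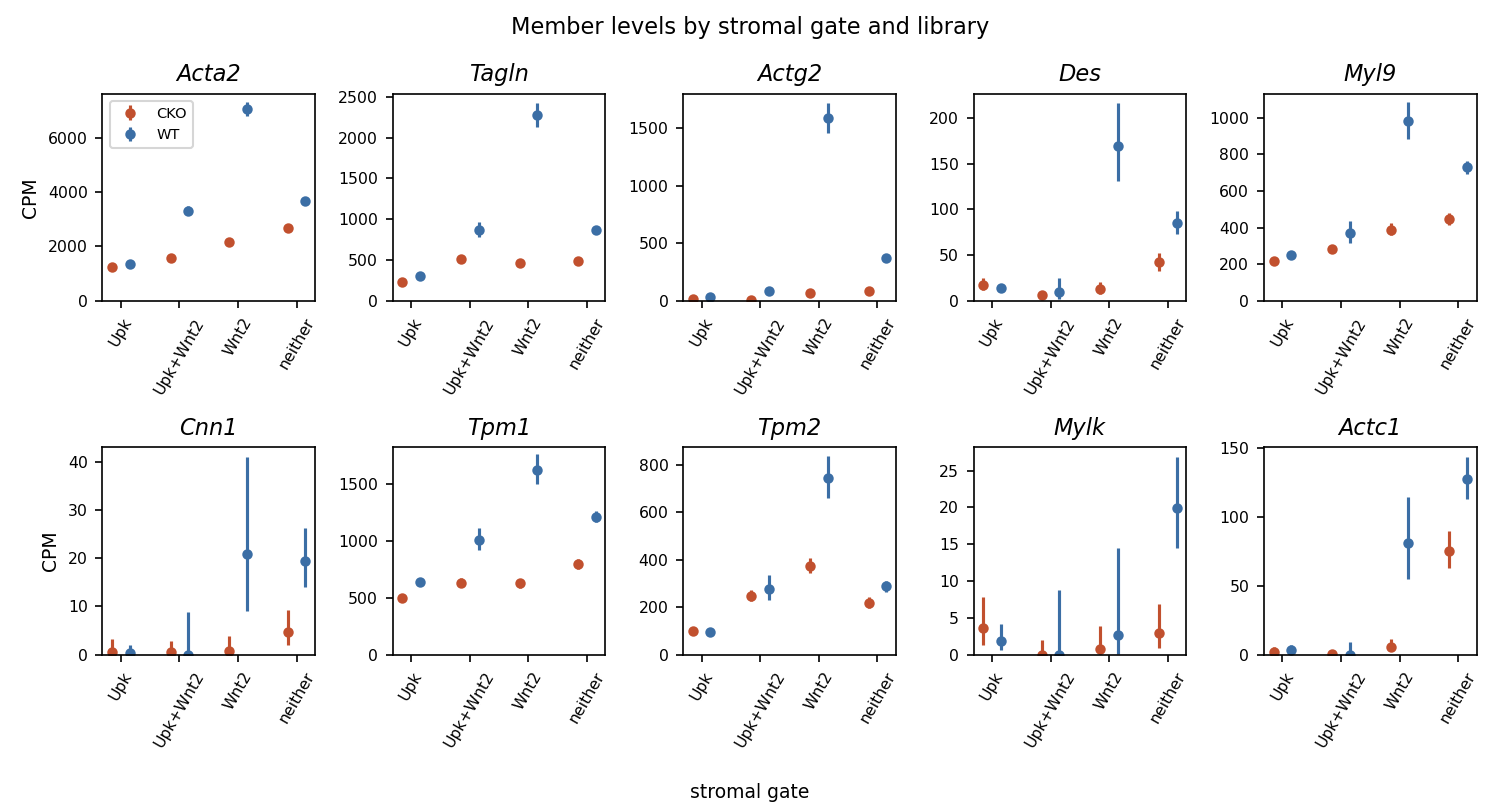
Level of each member in CPM by stromal gate (Upk gate alone, both gates, Wnt2 gate alone, neither), CKO left of WT, with exact 95% Poisson intervals; the axis of each gene starts at 0. Acta2 differs little in the Upk gate (1236 CPM in CKO and 1346 CPM in WT) and more in the Wnt2 gate (2167 CPM in CKO and 7042 CPM in WT).

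High member levels were also seen in cells with rare smooth muscle genes that are no members. Of Myh11, Lmod1, Synpo2, Pdlim3, Kcnmb1, Myocd, Ldb3 and Pln, at least 2 were seen in 5 CKO and 10 WT stromal cells. In these cells the summed members were at 11292 CPM in CKO and 19783 CPM in WT, against 3399 CPM in CKO and 4823 CPM in WT in the other stromal cells. Of the 5 CKO cells 1 held 662 of 1125 Acta2 UMIs and 43 of 70 Actg2 UMIs, and without the cell with the most member UMIs of each library the summed members were at 6244 CPM in CKO and 17934 CPM in WT. Actg2 was seen in 2 of the 5 CKO cells. The median depth of these cells was 36752 UMIs in CKO and 22078 UMIs in WT, against 21871.5 UMIs in CKO and 22599 UMIs in WT in the other stromal cells. Actg2 was at 378 CPM in the 5 CKO cells and 35.3 CPM in the other CKO cells, and at 1958 CPM in the 10 WT cells and 189 CPM in the other WT cells. Cnn1 was at 21.6 CPM in the 5 CKO cells, from 4 UMIs in 1 cell, and 1.07 CPM in the other CKO cells, and at 176 CPM in the 10 WT cells and 1.10 CPM in the other WT cells. Over 2-fold higher in such cells were 5 of 8 members with at least 20 UMIs in CKO and 10 of 10 in WT, and none was over 2-fold lower. Of all measured genes 6.97% in CKO and 11.8% in WT were over 2-fold higher, and 20.5% in CKO and 14% in WT over 2-fold lower. All 96 Actc1 UMIs of the 5 CKO cells came from 1 cell. Without the top cell of each group, Tagln (850 against 385 CPM) and Actg2 (196 against 32.8 CPM) stayed over 2-fold higher in such CKO cells. Acta2 (3365 against 1749 CPM), Tpm1 (959 against 613 CPM) and Actc1 (0 against 5.37 CPM) did not. Des was then lower in such CKO cells, at 7.27 against 19.6 CPM.

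Cells with Cnn1 were few. Of the 6 CKO cells with Cnn1, 2 had Actg2, 4 had Des and 2 had Actc1, and the shares in CKO cells without Cnn1 were 29.9% for Actg2, 22.5% for Des and 5.54% for Actc1, so that of Actg2 was near its share in other cells. Of the 11 WT cells with Cnn1, all 11 had Actg2, 9 had Des and 8 had Actc1, and the shares in WT cells without Cnn1 were 52.1% for Actg2, 36.9% for Des and 7.20% for Actc1. In the CKO cells with Cnn1, Acta2 was at 5683 CPM and Actg2 at 293 CPM, against 1780 CPM and 36.9 CPM in the CKO cells without it. In the WT cells with Cnn1, Acta2 was at 9090 CPM and Actg2 at 2059 CPM, against 2401 CPM and 171 CPM in the WT cells without it. The cells with Cnn1 were also deeper, with a median of 37656 UMIs in CKO and 28417 UMIs in WT, against 21854 UMIs in CKO and 22100.5 UMIs in WT without it.

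Over single stromal cells the members' levels correlated in both libraries, with higher values in WT. Among the 7 members seen in the largest shares of cells (Acta2, Tagln, Actg2, Des, Myl9, Tpm1 and Tpm2), the 21 pairwise Pearson correlations of log-scaled levels had a median of 0.31 over 277 CKO cells (0.05 to 0.58) and 0.64 over 247 WT cells (0.44 to 0.83). The Acta2 and Tagln pair was the closest, at 0.58 in CKO and 0.83 in WT. Acta2 and Actg2 were at 0.31 in CKO and 0.71 in WT, and Cnn1 and Actc1 at 0.44 in CKO and 0.79 in WT. The cells of a library differ in depth and share that library, and counts of several members were sparser in CKO, so these values are a description.

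**Figure D5:**
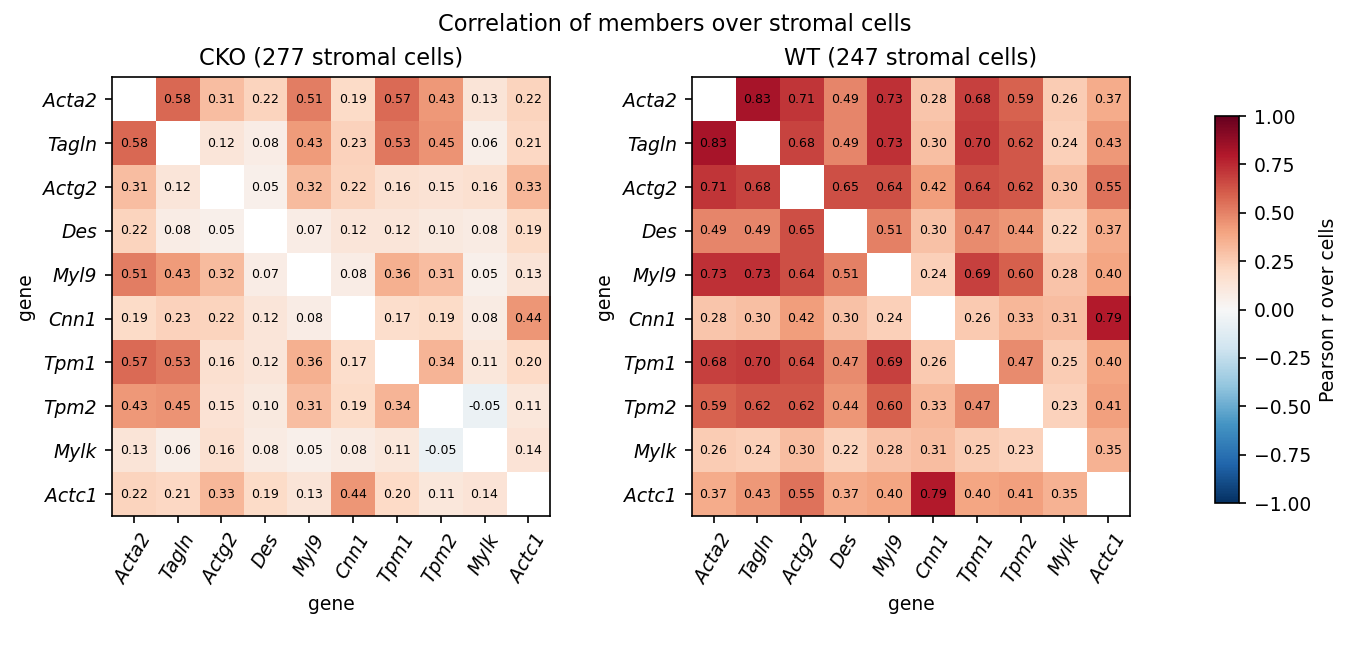
Pearson correlation of log-scaled member levels over single stromal cells, CKO (277 cells) on the left and WT (247 cells) on the right. The pair of Acta2 and Tagln is at 0.58 in CKO and 0.83 in WT.

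Genes whose level followed the summed members most closely over all 524 stromal cells were Cnn2 (0.57), Dstn (0.56), Csrp1 (0.53), Myl12a (0.52), Myl6 (0.51), Tgfb1i1 (0.50), Gpc4 (0.43), Pdlim7 (0.41), Rsu1 (0.41) and Cald1 (0.40), out of 8114 genes ranked after centring each library. Cnn2 is a non-muscle calponin, Dstn the actin-severing protein destrin, Csrp1 and Pdlim7 LIM proteins of the actin cytoskeleton, and Cald1 caldesmon. Of these 10 genes none was over 2-fold lower in CKO, beside 3.76% of all measured genes in stroma. With so low a share, that count is not read as a result about these genes. Cnn2 was at 394 CPM in CKO and 382 CPM in WT, Dstn at 317 CPM in CKO and 323 CPM in WT, and Csrp1 at 339 CPM in CKO and 267 CPM in WT. Gpc4, a glypican, was at 15.1 CPM in CKO and 25.3 CPM in WT and followed the members in WT (0.62) more than in CKO (0.13). At the other end of the ranking stood Upk3b (-0.39), Tspan13 (-0.39) and Upk1b (-0.36).

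Of 34 other contractile and cytoskeletal genes, 32 had at least 20 UMIs, 2 were over 2-fold lower in CKO stroma and 1 was over 2-fold higher, with a median log2 ratio of -0.14. The summed list was at 19672 CPM in CKO and 19804 CPM in WT. Its most abundant genes were Actg1 at 5468 CPM in CKO and 4762 CPM in WT, Actb at 4216 CPM in CKO and 5697 CPM in WT, and Myl6, the essential light chain, at 1917 CPM in CKO and 2237 CPM in WT. The gene over 2-fold higher was Csrp2, a LIM protein, at 1020 CPM in CKO and 298 CPM in WT, a ratio of 3.42 (3.24 to 3.61). Both lower genes were rare, and they are named here after their values were seen. Lmod1, leiomodin, had 21 UMIs in CKO and 57 in WT, and Kcnmb1, a potassium channel subunit, 10 UMIs in CKO and 25 in WT. Myh11, the smooth muscle myosin heavy chain, had 2 UMIs in CKO and 17 in WT and was below the minimum.

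Calcium handling genes held no gene past 2-fold among the 4 measured, beside 3.76% of all measured genes lower and 6% higher in stroma. Calm2, which encodes calmodulin, was at 651 CPM in CKO and 893 CPM in WT. Atp2a2, the calcium pump of the sarcoplasmic reticulum, was at 54.5 CPM in CKO and 58.8 CPM in WT. Pln had 0 UMIs in both libraries.

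Of 21 measured regulators, 2 were over 2-fold lower and 2 over 2-fold higher, beside 3.76% and 6% of all measured genes in stroma. The regulators had a median log2 ratio of -0.23. Hand1, a mesodermal transcription factor, was at 383 CPM in CKO and 417 CPM in WT, Rhoa, the GTPase upstream of the actin cytoskeleton, at 325 CPM in CKO and 305 CPM in WT, and Tbx20 at 205 CPM in CKO and 221 CPM in WT. Tcf21, a transcription factor of mesothelium and mesenchyme, was at 17.1 CPM in CKO and 43.3 CPM in WT, and Rock2, a kinase that acts on myosin phosphatase, at 52.6 CPM in CKO and 116 CPM in WT. Klf4, known as a repressor of smooth muscle genes, was at 42.0 CPM in CKO and 12.7 CPM in WT, and Smad3, which carries TGF-beta signals, at 11.7 CPM in CKO and 5.76 CPM in WT. Outside the naming rule, Srf, the serum response factor, had 155 UMIs in CKO and 105 in WT, a ratio of 1.26 (0.974 to 1.62). Myocd, myocardin, had 4 UMIs in CKO and 2 in WT, too few to compare.

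Of the 10 TGF-beta ligands and targets, 0 were over 2-fold lower and 2 over 2-fold higher, beside 3.76% and 6% of all measured genes. This list had a median log2 ratio of 0.72. Tgfb3, a TGF-beta ligand, was at 15.4 CPM in CKO and 5.06 CPM in WT. The most abundant were Cyr61 at 474 CPM in CKO and 268 CPM in WT, Tgfbi at 85.4 CPM in CKO and 49.0 CPM in WT, and Bmp4 at 73.0 CPM in CKO and 102 CPM in WT.

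Immediate early genes, known to be induced quickly by serum, stress or tissue dissociation, also differed between the libraries. Of the 10, 5 were over 2-fold higher in CKO stroma and 0 over 2-fold lower, beside 6% and 3.76% of all measured genes. Their summed level was 1986 CPM in CKO and 1170 CPM in WT, with a median log2 ratio of 1.13. Fos was at 469 CPM in CKO and 259 CPM in WT, Egr1 at 370 CPM in CKO and 143 CPM in WT, and Jun at 308 CPM in CKO and 375 CPM in WT. Fosb had a ratio of 7.83, Zfp36 of 5.29, Atf3 of 4.93 and Dusp1 of 2.70. The part of this in the members' levels was not tested.

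Striated muscle genes had a lower summed level in CKO, at 149 CPM in CKO and 225 CPM in WT, with a median log2 ratio of -0.59. Myh6, Myh7, Myl2, Myod1 and Myog had 0 UMIs in the stromal cells of both libraries. Of the 7 measured genes of that list 2 were over 2-fold lower and 0 over 2-fold higher, beside 3.76% and 6% of all measured genes. Those shares also stand beside the pericyte counts below. Myl7, an atrial light chain, was at 1.48 CPM in CKO and 13.8 CPM in WT, and Myl4 at 0.742 CPM in CKO and 7.85 CPM in WT, both named after their values were seen. Its most abundant genes were Tnni1 at 99.3 CPM in CKO and 150 CPM in WT, Nexn at 29.8 CPM in CKO and 36.1 CPM in WT, and Tnnt2 at 11.7 CPM in CKO and 11.3 CPM in WT. Of 6 measured pericyte genes, 1 was over 2-fold lower (Abcc9, 7 UMIs in CKO and 15 in WT) and 1 over 2-fold higher (Anpep, 47 UMIs in CKO and 12 in WT), both named after their values were seen. The most abundant were Pdgfrb at 42.5 CPM in CKO and 48.3 CPM in WT, Rgs5 with 56 UMIs in CKO and 43 in WT, and Notch3 with 35 UMIs in CKO and 29 in WT.

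Outside stroma the megakaryocyte gate held unlike cells in the 2 libraries. Pf4, a platelet chemokine, was at 7674 CPM in the 13 CKO cells with Actc1 and 6410 CPM in the other 48 CKO cells, but at 562 CPM in the 17 WT cells, which showed a median of 6 megakaryocyte markers and a median depth of 41100 UMIs. The part of this in the members' levels was not tested. In CKO megakaryocytes Myl9 was at 183 CPM in 61 cells, Tpm2 at 224 CPM and Actc1 at 125 CPM, while in 17 WT megakaryocytes Myl9 was at 1.46 CPM, Tpm2 at 16.1 CPM and Actc1 at 0. Actc1 had 198 UMIs in 13 of the 61 CKO cells, with a median of 10 and a highest value of 69 UMIs among them. Those 13 cells showed a median of 2 of 20 stromal markers and 8 of 10 megakaryocyte markers, had 2 Tagln UMIs in all and 0 of the cardiac gene Myl7. They also had 220 Myl9 and 188 Tpm2 UMIs. Tnnt2, another cardiac gene, had 14 UMIs in those 13 cells, with at most 10 in a cell. In the other 48 CKO cells Tnnt2 had 113 UMIs, with at most 48 in a cell. Acta2 in CKO megakaryocytes rested on 1 cell that held 165 of 209 UMIs, and without it the level was 28.2 CPM. Of the 61 CKO megakaryocytes 2 had summed members above 10000 CPM. With 17 WT cells, under the minimum of 20, no ratio is given for this class.

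In erythromyeloid progenitors Tpm2 was at 108 CPM in CKO and 42.5 CPM in WT, a ratio of 2.54 (2.20 to 2.92), and was seen in 74.6% of CKO and 64.5% of WT cells. Myl9 there had 75 UMIs in CKO and 4 in WT, of which 1 CKO cell held 31 and another 24. Of the 6 members with at least 20 UMIs in this class, 3 (Myl9, Tpm2 and Actc1) were over 2-fold higher in CKO and 0 lower, beside 8.49% of all measured genes higher and 4.12% lower. In erythroid cells the same 3 of 6 members were over 2-fold higher and 0 lower, beside 7.54% of all measured genes higher and 4.94% lower, and Tpm2 there had 64 UMIs in CKO, 35 of them in 1 cell, and 8 in WT. Erythroid cells were taken as the background, but whether these UMIs are background was not tested. The ratios there compare low levels between the libraries and are not read as expression. In endothelium Myl9 had 50 UMIs in CKO and 9 in WT, a ratio of 3.44 (1.67 to 7.95), Tpm1 had a ratio of 0.849 (0.691 to 1.04) and Mylk of 0.665 (0.422 to 1.05). Of the 5 members with at least 20 UMIs in endothelium 1 was over 2-fold higher and 0 lower, beside 4.43% of all measured genes higher and 6.8% lower. The median depth of endothelial cells was 32026.5 UMIs in CKO and 13960 UMIs in WT.

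Cells were also divided by sex-linked transcripts, since each library mixes embryos of both sexes. Over stromal cells with Xist and no Y-linked UMIs, 103 in each library, Acta2 was at 2144 CPM in CKO and 2285 CPM in WT, and Actg2 at 53.7 CPM in CKO and 168 CPM in WT. Over cells with Y-linked and no Xist UMIs, 128 in CKO and 122 in WT, Acta2 was at 1564 CPM in CKO and 3206 CPM in WT, and Actg2 at 35.2 CPM in CKO and 333 CPM in WT. The direction was the same in both sets for 9 of the 10 members. Tpm2 had a ratio of 0.992 in the cells with Xist and 1.014 in the cells with Y-linked UMIs. Above 10000 CPM lay 2 of 103 CKO and 9 of 103 WT cells with Xist, and 3 of 128 CKO and 21 of 122 WT cells with Y-linked UMIs. Over 2-fold lower in CKO were 3 members in the cells with Xist and 7 in the cells with Y-linked UMIs. The share of all genes past 2-fold was not counted in either set, so these counts are not read as a result about the members. Whether the difference itself differs between these sets was not tested, and how many embryos each set holds is not known.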

How the data were processed

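The deposited files hold raw UMI counts per gene and barcode, 1 matrix per library, which the authors made with Cell Ranger on GRCm38 per the submitters' processing notes; those notes also name Seurat, and no version is given. Values were whole numbers, and gene tables were identical. Cells with at least 500 genes, at most 10% mitochondrial UMIs and no Scrublet call (expected rate 0.01) were kept. The caller marked 5 CKO and 2 WT barcodes, so doublets are largely untreated. Gates needed 9 of 20 stromal, 8 of 12 endothelial, 8 of 14 endodermal, 9 of 12 erythroid, 6 of 13 progenitor, 5 of 10 megakaryocyte or 6 of 10 macrophage markers found in the files, with numbers set after seeing the data. Members and lists were chosen with earlier results of these data known. Genes with at least 20 UMIs over both groups were counted as measured. Named besides the members are Smarcc1, the 3 most abundant genes of each list, list genes with at least 100 UMIs past 2-fold and the 10 genes most like the members. Values of 2 genes that this rule names are not reported here. None of the first 500 bases of a member's coding transcript shared a 50-base stretch with another gene. Log2 ratios have 0.5 CPM added. The ratio step was tested on simulated counts. Python 3.11.15, scipy 1.17.1 and scanpy 1.11.5 were used.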

Additional observations from a re-analysis of the deposited data

Results flagged for a closer look

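Some members were lower in CKO in stroma and higher in CKO in another class, with both counting intervals away from a ratio of 1. With 1 library per genotype these differences between classes were not tested. Acta2 had a CKO over WT ratio of 0.691 in stroma and 1.94 in erythroid cells, where it was at 6.53 CPM in CKO and 3.37 CPM in WT. Erythroid cells were taken as the background, with at most 3 Acta2 UMIs in a cell. In CKO 1 erythroid cell held 35 Tpm2, 20 Actc1 and 18 Myl9 UMIs. Whether the erythroid UMIs are background was not tested, and their ratios are not read as expression. Myl9 had a ratio of 0.679 in stroma, 3.44 in endothelium, 5.68 in erythroid cells and 23.9 in erythromyeloid progenitors, where it had 75 UMIs in CKO and 4 in WT. Actc1 had a ratio of 0.380 in stroma and 15.7 in erythroid cells, with 24 UMIs in CKO, 20 of them in 1 cell, and 1 in WT. In erythromyeloid progenitors Actc1 had 32 UMIs in CKO, 27 of them in 1 cell, and 0 in WT, at least 13.6-fold higher against a floor of 3 counts in WT.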

How the results depend on the processing

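No paired analysis was possible because each genotype has 1 library. Of 15 alternatives, 12 were listed at the start and 3 were added after seeing the data (stromal cells of a second gate kept, and the cell with the most member UMIs of each library left out of all stroma or of each gate or class). Under the 13 that give ratios over all stromal cells, the log2 ratio of each member except Tpm2 was below 0, and that of Tpm2 ranged between -0.01 and 0.18. No direction of a ratio over all stromal cells whose interval excluded 1 reversed. Within gates and classes leaving out the top cell was the only alternative run. Of 48 ratios there, 4 whose interval excluded 1 reversed, all with both gates, where the log2 ratio became 0.13 for Acta2, 0.48 for Tagln, 0.39 for Myl9 and 0.14 for Tpm1. Of 20 ratios past 2-fold 4 no longer were by log2 ratios with 0.5 CPM added, namely Acta2 and Actg2 (-0.63) with both gates, Des (-0.98) with neither and Actc1 (0.48) in erythroid cells. Without the added CPM that Actc1 ratio was 2.60. The top cell was chosen by its summed members, so it need not hold most UMIs of a given member. In CKO erythromyeloid progenitors it held 0 of 32 Actc1 UMIs and 24 of 75 Myl9 UMIs. Other cells there held 27 Actc1 and 31 Myl9 UMIs and stayed in.
The summed members were at 3825 CPM in CKO and 5636 CPM in WT with classes from Leiden clusters, 3697 CPM in CKO and 5600 CPM in WT without globin and mitochondrial UMIs, 3521 CPM in CKO and 5161 CPM in WT as a mean over cells, and 3458 CPM in CKO and 5281 CPM in WT without the top cell. They were at 3731 CPM in CKO with set-apart cells kept and at 5551 CPM in WT with at most 5% mitochondrial UMIs. Over cells with Xist and no Y-linked UMIs they were at 3947 CPM in CKO and 4596 CPM in WT. There 3 members in place of 5 were over 2-fold lower, with no share of all genes counted for these cells. Actg2 was seen there in 37.9% of CKO cells, and it made up 0.461% of actin UMIs in CKO and 1.28% in WT. Over cells with Y-linked and no Xist UMIs the summed members were at 3131 CPM in CKO and 6330 CPM in WT, and Actg2 made up 0.304% of actin UMIs in CKO and 2.38% in WT. The Actg2 share of CKO actin UMIs was 0.436% over cells with 0 Smarcc1 UMIs and 0.335% without the top cell. Thinned to 10000 UMIs, Actg2 was seen in 20.2% of CKO and 40.1% of WT cells. With no minimum of UMIs 11.7% of genes were over 2-fold lower in CKO. The cause of these changes was not tested. Counts of 11 to 51 UMIs for Cnn1 and Mylk limit their ratios.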
